A study of Mus musculus with 24 samples.

Results

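The genes described here encode the nuclear-encoded subunits of the mitochondrial respiratory chain and ATP synthase. They were chosen by symbol alone: rows of the count table whose mouse symbol begins with Ndufa, Ndufb, Ndufc, Ndufs, Ndufv, Uqcr, Cox4, Cox5, Cox6, Cox7, Cox8 or Atp5, together with Sdha, Sdhb, Sdhc, Sdhd, Cyc1 and Cycs, without Ndufaf symbols and without symbols carrying -ps. This gave 92 of the 78298 rows of the table, under 91 symbols, because Atp5o appears under a second identifier that held no count. They comprise 39 members of complex I, 4 of complex II, 9 of complex III, cytochrome c, 21 of complex IV, among which Ndufa4 and Ndufa4l2 were placed, and 18 of complex V. The study sequenced poly(A)-selected RNA from the livers of 6 normal control mice and 18 mice of a steatohepatitis model, a state of fatty, inflamed liver. The labels do not say how the disease was induced or for how long, nor the strain, sex, age or time of sampling of the mice, and these are not stated in any other source used here. The 24 libraries held 31.6 to 58.4 M counted reads (M, mega), with a mean of 38.7 ± 6.02 M over the 6 controls and 40.7 ± 7.17 M over the 18 model mice (± SD). Each library was taken as 1 mouse, and p-values measure the spread between these libraries.

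The respiratory chain passes electrons from NADH, through complex I, and from succinate, through complex II, to coenzyme Q, then through complex III and cytochrome c to complex IV, which reduces oxygen. Complexes I, III and IV pump protons across the inner mitochondrial membrane, and complex V, the ATP synthase, makes ATP as the protons return. Most subunits are encoded in the nucleus and imported, a small set of core subunits is encoded in mitochondrial DNA, and complex II has no mitochondrially encoded subunit. Hepatocytes are rich in mitochondria, and the chain there takes up the electrons released by fatty acid oxidation.

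Most of these transcripts were somewhat lower in model livers after TMM scaling. TMM, the trimmed mean of M-values, sets the bulk of genes to no change. With scaling by library totals alone the members' median difference was close to 0. The TMM factors ran from 0.81 to 0.89 in controls and from 0.99 to 1.16 in model mice, without overlap. Of 85 members with enough counts to be tested, 58 were lower and 2 higher in model livers with TMM factors (edgeR quasi-likelihood F test, Benjamini-Hochberg adjusted p below 0.05 over 17456 genes), beside 28.8% of all tested genes called lower and 31.2% called higher. The median log2 fold change of the 85 was -0.30, a difference of -19.0%, beside 0.01 over all tested genes, and 80 of the 85 lay below 0. With library totals alone 11 were lower and 8 higher, beside 8.95% and 53.9% of all genes, and the members' median was 0.03 while that of all genes was 0.34. Relative to the all-gene median the members therefore lay at -0.32 under either scaling. A change of scaling shifts all genes nearly alike, so this agreement is not a separate result. The differences were small in size: the median absolute log2 fold change was 0.31 in the members and 0.37 over all genes, and 2 members differed at least 2-fold, beside 19.9% of all genes. The members together took 1.10 to 1.30% of the counts of a control library and 1.09 to 1.44% of a model library, ranges that overlap. Log2 differences below are log2 fold changes of model over control.

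**Figure D1:**
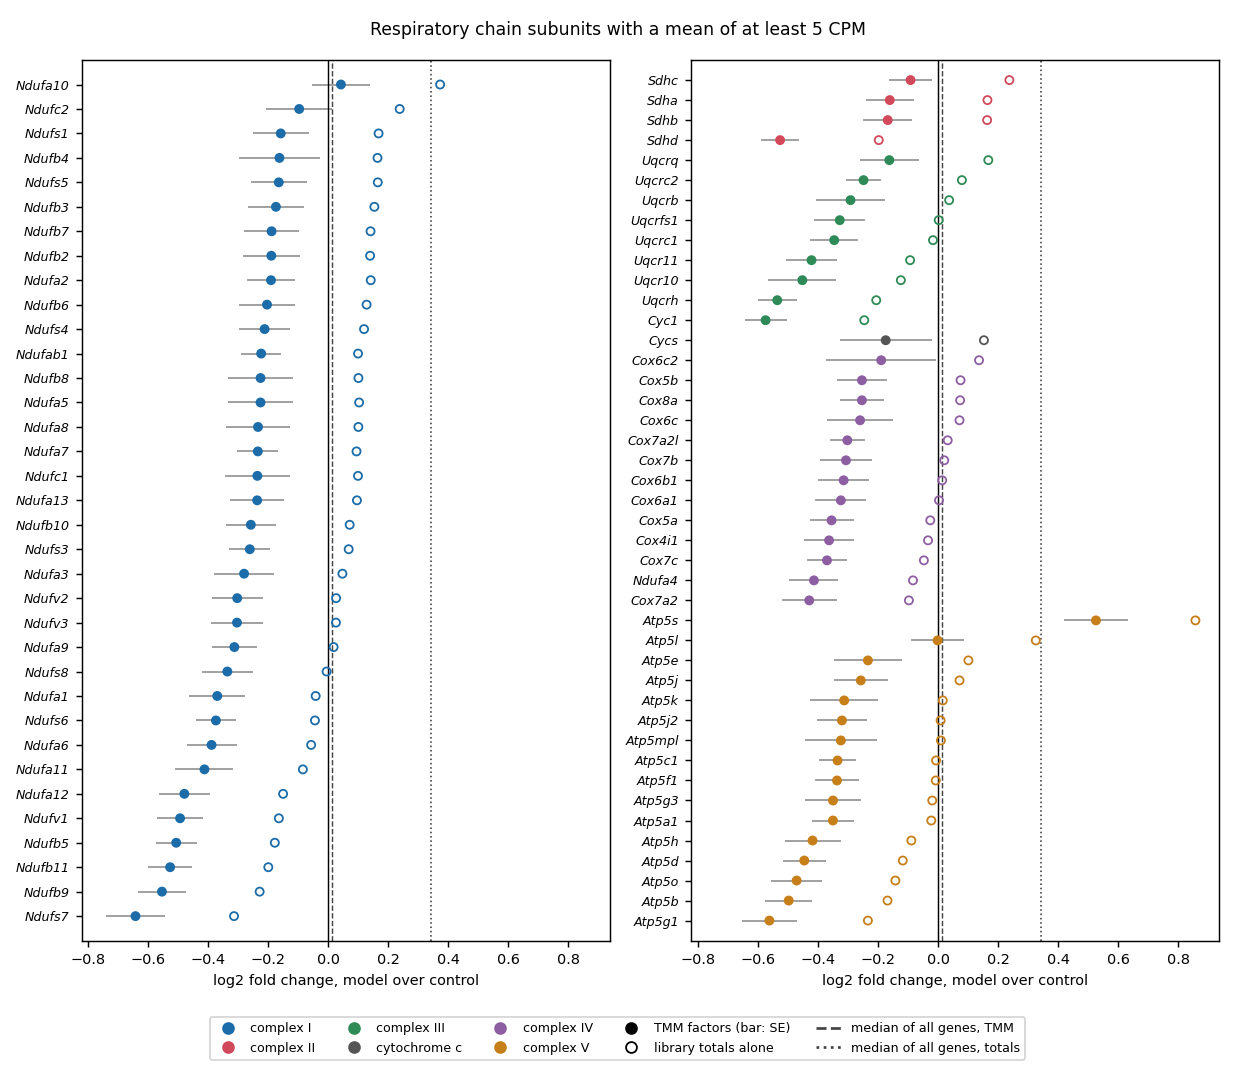
Log2 fold change of the members with a mean of at least 5 CPM (counts per 1000000 reads of a library), model over control, in order of size within each complex, with 1 member not shown; filled points with SE bars use TMM factors and open points library totals alone. With TMM factors nearly all lie left of 0, and with totals they scatter about 0, left of the dotted all-gene median of 0.34.

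Several features of the whole livers moved with the groups, and their part in the members' differences was not tested. Of 12 hepatocyte markers 11 were in the table under their symbols, and 9 of them were lower, with a summed level of 148006 to 219793 CPM in controls and 79120 to 139868 in model mice. All 12 macrophage markers were higher, from a summed 42.5 to 103 CPM in controls to 215 to 1059 in model mice, and all 10 lymphocyte markers and 10 of 12 stellate and fibroblast markers were higher. Beside these lists, 28.8% of all tested genes were lower and 31.2% higher with TMM factors. In bulk liver, fewer cells of a type and less RNA per cell cannot be told apart. An index of clock genes lay between -0.75 and 1.17 in controls 1 to 5, at -2.89 in control 6 and between -3.44 and -2.48 in the model mice, so that control 6 alone lay in the model range. With this index as a covariate 49 members were lower and 1 higher, beside 14.6% and 18.1% of all genes. The members' median log2 fold change was then -0.49, against -0.30 without the index. Apart from control 6 the index separates the groups, so this fit leans on control 6 and cannot tell index from group. With control 6 as the only control 23 were lower and 0 higher, beside 9.75% and 13.3% of all genes, and the median log2 fold change was -0.37. That comparison rests on a single control, assumed to vary like the model mice.

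Model mouse 3 differed from the other model mice. In each mouse the deviation of every member from the control mean was taken on the log2 scale, over the 79 members that averaged 5 CPM or more, and the median of these deviations was computed. With TMM factors it ran from -0.17 in control 4 to 0.12 in control 3. It was 0.11 in model mouse 3 and between -0.56 and -0.17 in the other 17. In model mouse 3, 26 of 79 members lay below their control mean, and in the other model mice 61 to 78 did. Model mouse 15 was the lowest, and model mouse 18 was the nearest to the controls after model mouse 3. Without model mouse 3 the number of members called lower was 69, beside 29.6% of all genes.

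**Figure D2:**
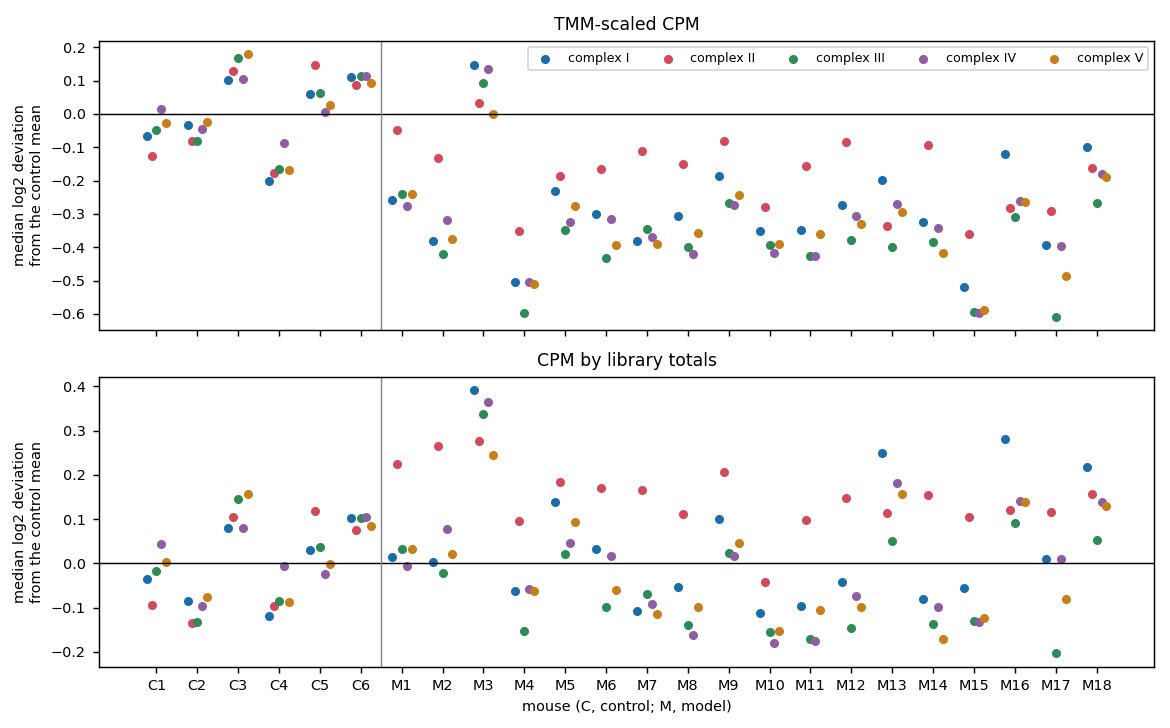
Median log2 deviation of each complex from its control mean in each of the 24 mice, with TMM scaling above and library totals below. With TMM scaling model mouse 3 lies at or above 0 for all 5 complexes and the other model mice lie below 0, while with library totals the model mice lie on both sides of 0 and complex II lies above 0 in all but 1 of them.

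Complex I, NADH:ubiquinone oxidoreductase, had 23 of its 37 tested members lower and none higher with TMM factors, beside 28.8% and 31.2% of all genes. The median log2 fold change was -0.24. With library totals 5 were lower and 1 higher, beside 8.95% and 53.9% of all genes, and the median was 0.09. No member of complexes I to III was called higher by edgeR or limma-voom with TMM factors or by DESeq2 with its own size factors, and 0 had an unadjusted p below 0.05 in that direction in edgeR. Under both scalings Ndufs7, Ndufb9, Ndufb11, Ndufb5 and Ndufv1 were lower. Ndufs7 (chromosome 10, 80084955 to 80092628, plus strand, GRCm39), which carries the last iron-sulfur cluster before coenzyme Q, ran from 64.2 through a median of 75.4 to 86.1 CPM in controls and from 34.4 through 46.7 to 74.7 in model mice. Of the model mice 17 lay below all controls and model mouse 3 lay among them. Its log2 fold change was -0.64 (SE 0.10, adjusted p = 3.64e-06, edgeR), a mean of 75.6 ± 9.36 CPM in controls (SD, n = 6) against 48.4 ± 8.46 in model mice (SD, n = 18).

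Other core subunits form the electron path from NADH. Ndufv1 (chromosome 19, 4057384 to 4062806, minus strand), which binds NADH and flavin mononucleotide, ran from 183 through 204 to 269 CPM in controls and from 124 through 149 to 182 in model mice. The groups did not overlap, which with TMM scaling held for 6.03% of all tested genes in this direction, and its log2 fold change was -0.49 (SE 0.08, adjusted p = 4.02e-06, edgeR). Of the 85 tested members 6 had groups separate in this way: Ndufb5, Ndufv1, Sdhd, Uqcrh, Cox6b2 and Atp5b. This is near the share of all tested genes, so the number of separate members does not set the chain apart. No member had all model mice above all controls, beside 9.66% of all genes.
Ndufv2, Ndufs3 and Ndufs8, which carry iron-sulfur clusters or lie beside them in the peripheral arm, were lower with TMM factors, by log2 fold changes of -0.30, -0.26 and -0.34. None of these 3 was called with library totals, where their values were 0.03, 0.07 and -0.0060. Ndufs1, the largest subunit of the complex, was at 126 ± 21.2 CPM in controls (SD, n = 6) and 113 ± 14.6 in model mice (SD, n = 18), and it was not called under either scaling (log2 fold change -0.16, adjusted p = 0.144, edgeR with TMM factors).

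The accessory subunits of complex I varied widely, also within the Ndufb group, where Ndufb4 at -0.16 and Ndufb3 at -0.17 were not called. Ndufb9 (chromosome 15, 58805605 to 58811337, plus strand) ran from 129.5 through 153 to 159 CPM in controls and from 80.0 through 102 to 139 in model mice. Only model mouse 3 reached the control range, and the log2 fold change was -0.55 (SE 0.08, adjusted p = 1.12e-06, edgeR). Ndufb11 (chromosome X, 20481565 to 20483858, minus strand) ran from 142 to 173 CPM in controls and from 85.0 to 146 in model mice, again with model mouse 3 alone inside the control range, at a log2 difference of -0.53 (SE 0.07). Ndufb5 separated the groups, with controls from 89.9 to 121 CPM and model mice from 61.1 to 88.1. Per kilobase of deposited gene length Ndufa1 was the most abundant member of the complex, at 202 CPM per kb in controls and 156 in model mice, and its log2 fold change of -0.37 was called with TMM factors and not with totals. At the other end Ndufa10 was not called with TMM factors, at 0.04, and was higher with library totals, at 0.37, near the all-gene median of that scaling.

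Complex II, succinate dehydrogenase, which also belongs to the citric acid cycle, had 1 of its 4 members lower, Sdhd. That share, 25%, is below the 28.8% of all tested genes called lower with TMM factors. With library totals 1 member was lower and 2 higher, beside 8.95% and 53.9% of all genes. Sdhd encodes the smaller of the membrane anchors that hold heme and bind coenzyme Q (chromosome 9, 50507657 to 50515112, minus strand). It ran from 258 through 283 to 353 CPM in controls and from 173 through 206 to 230 in model mice, with no overlap. Its log2 fold change was -0.53 (SE 0.06, adjusted p = 9.08e-08, edgeR), and -0.20 with library totals, where it was also called lower.
The flavoprotein Sdha was at 603 ± 72.2 CPM in controls (SD, n = 6) and 540 ± 59 in model mice (SD, n = 18), with a log2 difference of -0.16 that was not called (adjusted p = 0.0878, edgeR). The iron-sulfur protein Sdhb and the other anchor, Sdhc, were not called either, at -0.17 and -0.09, and Sdha and Sdhc were higher with library totals, at 0.16 and 0.24. The groups overlapped for all 3 of these genes.
A ratio of counts within a library does not depend on the scaling. Sdhd reads per Sdha read ran from 0.419 through a median of 0.471 to 0.577 in controls and from 0.344 through 0.381 to 0.441 in model mice, and 16 of the 18 model mice lay below all controls. Sdhd per Sdhc ran from 1.25 through 1.52 to 1.72 in controls and from 0.865 through 1.14 to 1.30 in model mice, with 15 below all controls. These ratios were picked after the values were seen and are given without a test.

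The summed counts of complex II over those of complex III ran from 0.635 through 0.677 to 0.709 in controls and from 0.616 through 0.770 to 0.808 in model mice. In 14 model mice the ratio was above all controls, and it was lowest in model mouse 3. Against complex I the ratio was 0.334 to 0.381 in controls and 0.319 to 0.425 in model mice, above all controls in 13. The 4 members of complex II thus took a larger part of the chain's reads in most model mice, while Sdhd was lower relative to Sdha and Sdhc.

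Upstream sequence was compared because the members lay on the same side of the all-gene median, and because Sdhd and its partners differed. Promoter windows of RefSeq on GRCm38.p6, 250 bases before to 50 after a transcription start, were found for 68 members and gave 73 windows. They were searched on both strands for the letters of sites known for nuclear respiratory factor 1 (NRF1), the ETS factors that include GABP, the estrogen-related receptors and YY1. The NRF1 palindrome was in 6.85% of the members' windows and 0.97% of all 32851 windows of that length, and the same palindrome with its sixth base left free, a form that includes it, in 24.66% against 4.6%. The ETS letters CCGGAAG were in 21.92% against 8.86%, AANATGGCG of YY1 in 13.70% against 2.38%, and TNAAGGTCA of the estrogen-related receptors in 4.11% against 1.28%. The 17 genes with the NRF1 form had a median log2 fold change of -0.33 with TMM factors and the 50 without it -0.30. For the ETS letters the medians were -0.29 in 16 genes with them and -0.31 in 51 without, for YY1 -0.32 in 10 and -0.30 in 57, and for the estrogen-related receptors -0.35 in 3 and -0.31 in 64. A match describes these letters in this window and shows no binding.
The 120 bases before the start are printed for 5 members, 5′ to 3′ on the gene's strand, with matches in capitals. Sdhd and Sdha were chosen as partners that differed, Uqcrh and Atp5b as members whose groups did not overlap, and Cox6a1 as an abundant member that was lower with TMM factors only. Matches of the NRF1 form read GCGCACGCGC, GCGCAGGCGC or GCGCAAGCGC, and CTTCCGG is the reverse complement of CCGGAAG.
Sdhd, chr9:50603850-50603969, minus strand: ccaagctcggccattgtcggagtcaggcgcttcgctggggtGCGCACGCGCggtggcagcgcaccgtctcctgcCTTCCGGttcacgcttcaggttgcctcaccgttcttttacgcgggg
Sdha, chr13:74350241-74350360, minus strand: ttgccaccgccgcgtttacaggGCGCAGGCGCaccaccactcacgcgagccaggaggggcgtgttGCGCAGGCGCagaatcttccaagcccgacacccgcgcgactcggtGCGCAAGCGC
Uqcrh, chr4:116075071-116075190, minus strand: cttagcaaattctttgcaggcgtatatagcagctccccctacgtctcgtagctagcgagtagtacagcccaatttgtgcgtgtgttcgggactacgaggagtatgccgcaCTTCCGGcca
Cox6a1, chr5:115348959-115349078, minus strand: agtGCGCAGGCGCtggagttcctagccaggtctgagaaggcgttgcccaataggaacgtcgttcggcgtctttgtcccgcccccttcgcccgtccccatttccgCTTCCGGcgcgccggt
Atp5b, chr10:128083187-128083306, plus strand: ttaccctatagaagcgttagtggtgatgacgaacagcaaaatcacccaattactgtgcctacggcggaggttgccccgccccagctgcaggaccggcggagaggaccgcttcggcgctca
Sdha, which was not called with TMM factors, holds 3 NRF1-form matches, Sdhd, which was lower under both scalings, holds 1 and an ETS match, and Atp5b, also lower under both, holds none in this stretch.

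Complex III, which passes electrons from coenzyme Q to cytochrome c, had 8 of 9 members lower with TMM factors, beside 28.8% of all genes. The median log2 fold change was -0.35. With library totals 2 members were lower, beside 8.95% of all genes, and the median was -0.02. Both of these 2 members carry or touch the exit of electrons from the complex. Cyc1, the cytochrome c1 subunit (chromosome 15, 76227723 to 76230460, plus strand), ran from 201 through 232 to 275 CPM in controls and from 133 through 158 to 205 in model mice. Model mouse 3 alone reached the control range, and the log2 fold change was -0.57 (SE 0.07, adjusted p = 1.06e-07, edgeR).
Uqcrh, the acidic hinge protein that helps cytochrome c dock on cytochrome c1 (chromosome 4, 115924162 to 115932268, minus strand), ran from 186 through 216 to 239 CPM in controls and from 122 through 146 to 176 in model mice, without overlap. Its log2 fold change was -0.54 (SE 0.06, adjusted p = 9.02e-08, edgeR). The core protein Uqcrc2 was lower by -0.25 with TMM factors only. Cyc1 reads per Uqcrc2 read, a ratio free of the scaling and picked after the values were seen, ran from 0.725 through 0.754 to 0.946 in controls and from 0.559 through 0.629 to 0.754 in model mice, with 17 model mice below all controls.
Uqcr10, a small subunit beside cytochrome c1, ranged from 67.7 to 78.9 CPM in controls and from 30.8 in model mouse 17 to 82.3 in model mouse 3, with a log2 difference of -0.45 (SE 0.11, adjusted p = 0.00129, edgeR). Uqcr11, the most abundant member per length at 251 CPM per kb in controls, was at 188 in model mice and was lower with TMM factors only. Uqcrq, a small subunit that binds near the quinone site, was the member not called, at -0.16.
The soluble carrier cytochrome c, Cycs, was low in liver by this count, at 8.97 ± 1.49 CPM in controls (SD, n = 6) and 7.94 ± 2.09 in model mice (SD, n = 18), and was not called (log2 fold change -0.17, adjusted p = 0.335, edgeR).

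**Figure D3:**
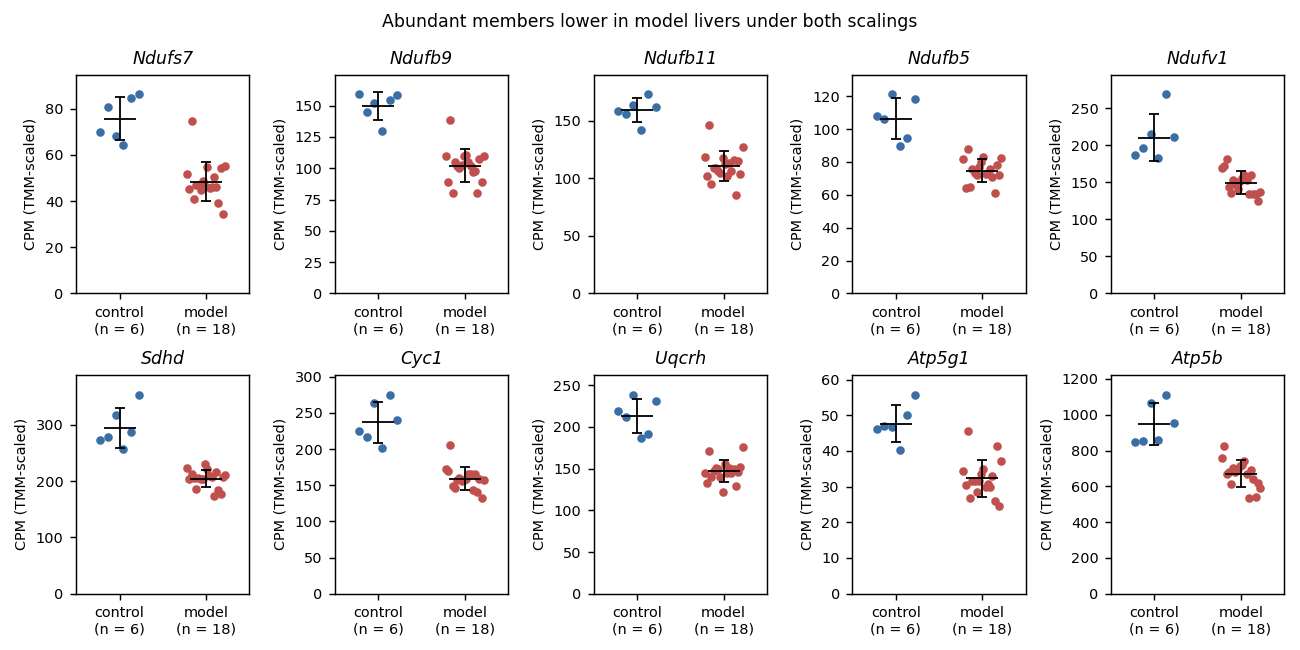
CPM with TMM scaling of the 10 abundant members that were lower in model livers under both scalings, a point for each mouse with the mean and SD of each group. No model mouse reaches the control range for Ndufb5, Ndufv1, Sdhd, Uqcrh and Atp5b, model mouse 3 alone does for Ndufs7, Ndufb9, Ndufb11 and Cyc1, and model mice 3 and 16 do for Atp5g1.

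Complex IV, cytochrome c oxidase, had 13 of 17 tested members lower and 1 higher with TMM factors, beside 28.8% and 31.2% of all genes. The median log2 fold change was -0.31. With library totals the complex had 1 lower and 2 higher, beside 8.95% and 53.9% of all genes, at a median of 0.02. Its nuclear subunits surround a catalytic core made in the mitochondrion, and several exist as a common form and a form restricted to muscle, lung, testis or low oxygen. The common forms were near to each other in size of difference. Cox7a2 was at -0.43, Ndufa4 at -0.41, Cox4i1 at -0.36, Cox6a1 at -0.32, Cox6b1 at -0.31, Cox7b at -0.31 and Cox8a at -0.25, all lower with TMM factors and none called with library totals, where Cox6a1, Cox6b1, Cox7b and Cox8a lay slightly above 0. Per kilobase Cox6b1, which caps the complex on the intermembrane side, was the most abundant of all members, at 409 CPM per kb in controls and 329 in model mice. Its values ran from 265 through 284 to 324 CPM in controls and from 186 through 235 to 332 in model mice, with 17 model mice below all controls and model mouse 3 above them.

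The restricted forms were all rare, and they did not move alike. Cox6b2, the testis form of Cox6b1 (chromosome 7, 4754791 to 4756093, minus strand), was present in every control, from 1.32 through 1.53 to 1.81 CPM, and ran from 0.116 through 0.313 to 0.972 in model mice. The groups did not overlap under either scaling, which with library totals held for 1.4% of all tested genes in this direction. Its log2 fold change was -2.05 (SE 0.23, adjusted p = 3.55e-08, edgeR), the largest fall among the members, and -1.73 with library totals. It rested on 301 counts in 6 controls and 285 in 18 model mice. As a share of the counts of the pair it was 0.531% of Cox6b2 plus Cox6b1 in controls and 0.158% in model mice. By mouse, Cox6b2 reads per 1000 Cox6b1 reads ran from 4.37 through 5.11 to 6.60 in controls and from 0.512 through 1.51 to 4.98 in model mice, with 17 model mice below all controls and model mouse 10 among them. Of 8 germ cell markers 1 had enough counts to be tested and was not called, and their summed level was 0.0629 to 0.639 CPM in controls and 0.227 to 0.797 in model mice.

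Cox8b, the heart and muscle form of Cox8a, was called higher. Its 18 model values ran from 0.0557 through 0.171 to 0.592 CPM. Its control values ran from 0 through 0.0330 to 0.0629, so that 1 model mouse lay among the controls. With library totals no model mouse did, as for 18.4% of all genes in this direction. Model mouse 16 and controls 1 and 5 held 2 counts each, so there the groups parted only by library total. The log2 fold change was 2.55 (SE 0.65, adjusted p = 0.00149, edgeR), from 7 counts in controls and 174 in model mice. Cox8b passed the count filter only through model mice, where it was high, so this p-value gives no separate support for a rise. By library totals alone the pooled ratio was 7.86 (exact 95% interval 3.74 to 19.8, counting error only). It had too few counts to be tested under a stricter filter, after thinning all libraries to the smallest, and without model mouse 6, 8, 13, 14, 17 or 18, and it was not called with the clock index as a covariate or with control 6 as the only control.
Cox4i2, the lung and low-oxygen form of Cox4i1, and Cox6a2, the muscle form of Cox6a1, were too rare to be tested. Cox4i2 had 7 counts in controls and 85 in model mice, a ratio of 3.84 by library totals (1.79 to 9.84), and Cox6a2 had 6 and 80, a ratio of 4.22 (1.85 to 11.8). Cox7b2 and Cox8c had 0 counts in all libraries, where 3 counts stand for 0.0514 to 0.0949 CPM. Cox7a1, the muscle form of Cox7a2, was at 0.643 ± 0.179 CPM in controls (SD, n = 6) and 0.552 ± 0.189 in model mice (SD, n = 18) and was not called.
Ndufa4l2, a paralogue of Ndufa4 induced at low oxygen, was at 0.754 ± 0.197 CPM in controls (SD, n = 6) and 0.975 ± 0.209 in model mice (SD, n = 18). It was not called with TMM factors (log2 fold change 0.37, adjusted p = 0.0612, edgeR) and was higher with library totals, at 0.70. Vascular mural cell markers were higher in 5 of 7 tested, beside 31.2% of all genes. Their summed level was 16.1 to 30.7 CPM in controls and 27.7 to 66.1 in model mice. Of 12 striated muscle markers 2 had enough counts to be tested. The 12 summed to 1.81 to 2.28 CPM in controls and 0.786 to 2.02 in model mice. Of 7 brown fat markers 3 were tested, 1 higher and 2 lower, beside 31.2% and 28.8% of all genes. The 7 summed to 110 to 1061 CPM in controls and 52.9 to 253 in model mice. They include Ppargc1a, also listed among the regulators of the chain, so this sum is not specific to brown fat cells. The part of cells carrying any of these markers in the levels of the isoforms was not tested.

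**Figure D4:**
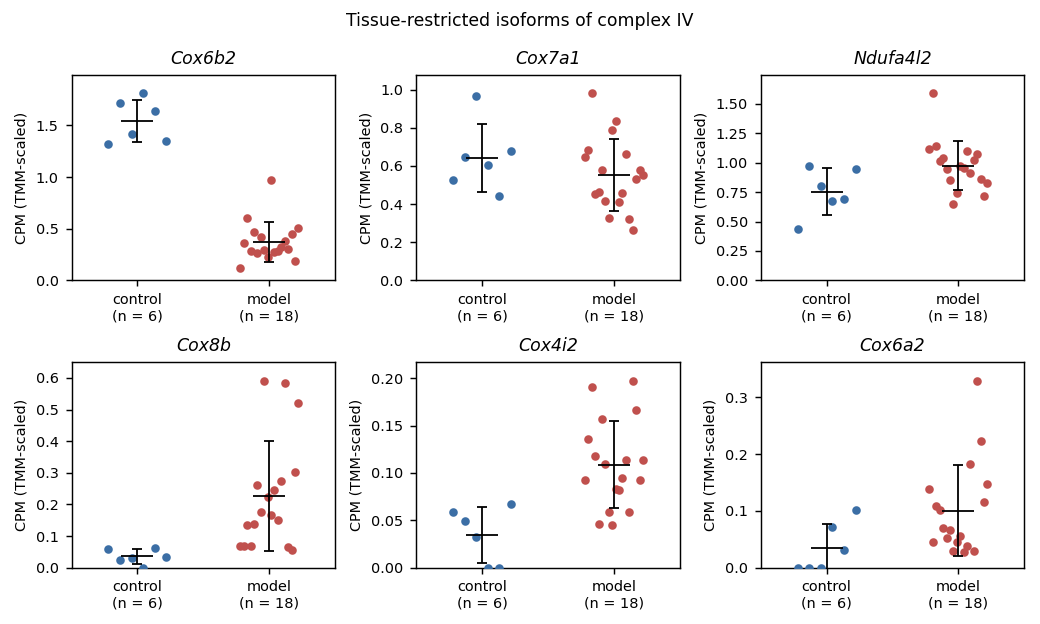
CPM with TMM scaling of 6 tissue-restricted members of complex IV, a point for each mouse with the mean and SD of each group; each panel has its own axis from 0. Cox6b2 is lower without overlap, Cox8b, Cox4i2 and Cox6a2 are near 0 in controls and reach 0.592, 0.198 and 0.329 CPM in model mice, and Cox7a1 and Ndufa4l2 overlap.

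Complex V, the ATP synthase, had 13 of 17 tested members lower and 1 higher with TMM factors, beside 28.8% and 31.2% of all genes. The median log2 fold change was -0.33. With library totals 2 were lower and 3 higher, beside 8.95% and 53.9% of all genes, at a median of -0.01. Atp5b encodes the catalytic beta subunit (chromosome 10, 127919142 to 127926260, plus strand). It ran from 849.8 through 906 to 1112 CPM in controls and from 536 through 681 to 823 in model mice, without overlap, with a log2 difference of -0.50 (SE 0.08, adjusted p = 5.46e-06, edgeR) and -0.17 with library totals, where it was also called. The alpha subunit Atp5a1, the most abundant member of the complex per length, at 407 CPM per kb in controls and 319 in model mice, was lower with TMM factors at -0.35 and not called with library totals, at -0.02. The enzyme holds alpha and beta in equal number, and their read ratio could be compared within libraries. Atp5b reads per Atp5a1 read ran from 0.717 through 0.737 to 0.776 in controls and from 0.618 through 0.673 to 0.754 in model mice, and 16 model mice lay below all controls. This ratio was picked after the values were seen.

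The c ring that turns in the membrane is encoded by Atp5g1, Atp5g2 and Atp5g3, which give the same mature protein. Atp5g1 (chromosome 11, 95959678 to 95966496, minus strand) ran from 40.3 through 46.9 to 55.7 CPM in controls and from 24.5 through 31.5 to 45.5 in model mice and was lower under both scalings, with model mice 3 and 16 inside the control range and a log2 difference of -0.56 (SE 0.09, adjusted p = 9.37e-06, edgeR). Atp5g3, the form with most reads, at 588 ± 90.8 CPM in controls (SD, n = 6) and 461 ± 69.6 in model mice (SD, n = 18), was lower with TMM factors only. Atp5g2 was low in liver by this count, near 1 CPM in both groups, not called with TMM factors at 0.10 and higher with library totals.
Atp5o, the stalk protein that confers oligomycin sensitivity, was lower at -0.47 with TMM factors only. Atp5l, the g subunit of the membrane part, was not called with TMM factors, with a value close to 0, and was higher with library totals.
Atp5s (chromosome 12, 69771724 to 69791434, plus strand) encodes coupling factor B, a protein associated with the enzyme and not one of its structural subunits. It rose from 4.85 through 6.62 to 7.82 CPM in controls to 7.06 through 9.06 to 11.6 in model mice, with 16 model mice above all controls. Its log2 fold change was 0.53 (SE 0.11, adjusted p = 1.23e-04, edgeR) and 0.86 with library totals. With those totals all 18 model mice lay above all controls for Atp5s, as for 18.4% of all genes. It was not called with the clock index as a covariate or with control 6 as the only control.

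Some members share sequence with other genes or with processed copies, and the way multiply mapped reads were counted is not stated in the sources used here. Of the 42 tested members with under 5% of their 31-base words in other annotated genes, 27 were lower and 2 higher, and of the 43 with more, 31 were lower, with medians of -0.30 in both. Among those lower under both scalings, Ndufv1, Sdhd, Cyc1, Cox6b2 and Ndufs7 shared under 5%, while Ndufb11 shared 29.0%, Ndufb9 17.2%, Atp5g1 14.1%, Ndufb5 11.9%, Uqcrh 6.74% and Atp5b 5.49%. Among members with low counts, Atp5g2 shared 40.2%, Cycs 29.4% and Atp5l 14.2%, so their levels are uncertain too. Of those lower under both scalings, Ndufb11, Ndufb5, Uqcrh and Atp5b overlap exons of genes on the opposite strand. Ndufb9 overlaps a gene on its own strand over 19.5% of its exon bases. Among other members Uqcr10 was overlapped over 57.5%, Atp5o over 47.9% and Cox4i1 over 34.0%, and Atp5o also shared 49.6% of its words. Whether strand was used in counting is not given. The values of these genes are uncertain to that extent.

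The subunits encoded in mitochondrial DNA, partners of the members within complexes I, III, IV and V, were not called. Of 13, 12 were tested and 0 were called by edgeR, DESeq2 or limma-voom, at a median log2 fold change of -0.11. At an unadjusted p below 0.05 the count was 0 in edgeR and limma-voom and 1, lower, in DESeq2. For 5 of the 12 (mt-Co2, mt-Co3, mt-Atp6, mt-Nd3 and mt-Nd4l) at least 98% of 31-base words occur in other annotated genes and the mean was 1.10 to 17.6 CPM, beside 572 to 26450 for the other 7, so these 5 rows hardly measure their transcripts. The 7 lay between -0.20 and 0.07, with a median of -0.11. Among them mt-Co1 shared 63.9% of its 31-base words and mt-Nd4 62.8%, so their levels are uncertain too. The rest shared 16.8% or less. The main subunit of complex IV, mt-Co1, was at 25486 ± 3296 CPM in controls (SD, n = 6) and 26772 ± 3823 in model mice (SD, n = 18), a log2 difference of 0.07 (SE 0.10). Cytochrome b of complex III, mt-Cytb, was at -0.13 (SE 0.15). With library totals 1 was higher, mt-Co1 at 0.40, beside 53.9% of all tested genes. The difference between mitochondrial and nuclear subunits was not tested.

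Genes that build and feed the chain, listed apart from the members, were called in both directions. The median of each list was negative with TMM factors and positive with library totals. For these lists and those that follow, 28.8% of all genes were lower and 31.2% higher with TMM factors. With library totals the shares were 8.95% and 53.9%. Of 45 assembly factors tested 18 were lower and 5 higher, at a median log2 fold change of -0.12, and with library totals 2 were lower and 22 higher. Cox10, an enzyme of heme A synthesis for complex IV, was lower under both scalings, at -0.63, and so was Ecsit, an assembly factor of complex I, at -0.57. Acad9 and Ndufaf7, also assembly factors of complex I, were higher, both at 0.58 with TMM factors. Of 19 genes of coenzyme Q synthesis and electron entry 5 were lower and 5 higher with TMM factors, and 0 and 13 with totals. Of 13 genes of the citric acid cycle 9 were lower and 1 higher with TMM factors, and 1 and 4 with totals. Fumarase, Fh1, which follows complex II in the cycle, had the largest fall, from 336 ± 101 to 183 ± 20.1 CPM (SD, n = 6 and 18), a log2 difference of -0.88, and Suclg2, the GTP-forming beta subunit of the step before complex II, was higher at 0.67. Both calls held with library totals.

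Of 16 transcriptional regulators of the chain 7 were lower and 1 higher with TMM factors, while 2 were lower and 4 higher with library totals. Esrra, the estrogen-related receptor alpha, which binds many of these genes, was at 45.0 ± 7.15 CPM in controls (SD, n = 6) and 27.0 ± 2.73 in model mice (SD, n = 18), a log2 difference of -0.74, and Polrmt, the mitochondrial RNA polymerase, was at -0.64. Both were lower under both scalings. Nrf1 at -0.35, Yy1 at -0.34, Tfb2m at -0.45, Ppargc1a at -0.48 and Tfam at -0.19 were lower with TMM factors only. Esrrg rose, at 1.31, from 1.45 ± 0.694 to 3.56 ± 1.37 CPM. Of 8 tested genes of ATP export and uncoupling 3 were lower and 2 higher with TMM factors, and 1 lower and 4 higher with library totals. The uncoupling protein Ucp2 and the adenine nucleotide carrier Slc25a4 were higher, at 1.51 and 1.42, and Slc25a42, a carrier of coenzyme A, was lower at -0.71, all under both scalings. The phosphate carrier Slc25a3 and the outer-membrane channel Vdac2 were lower with TMM factors only, at -0.31 and -0.20.

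**Figure D5:**
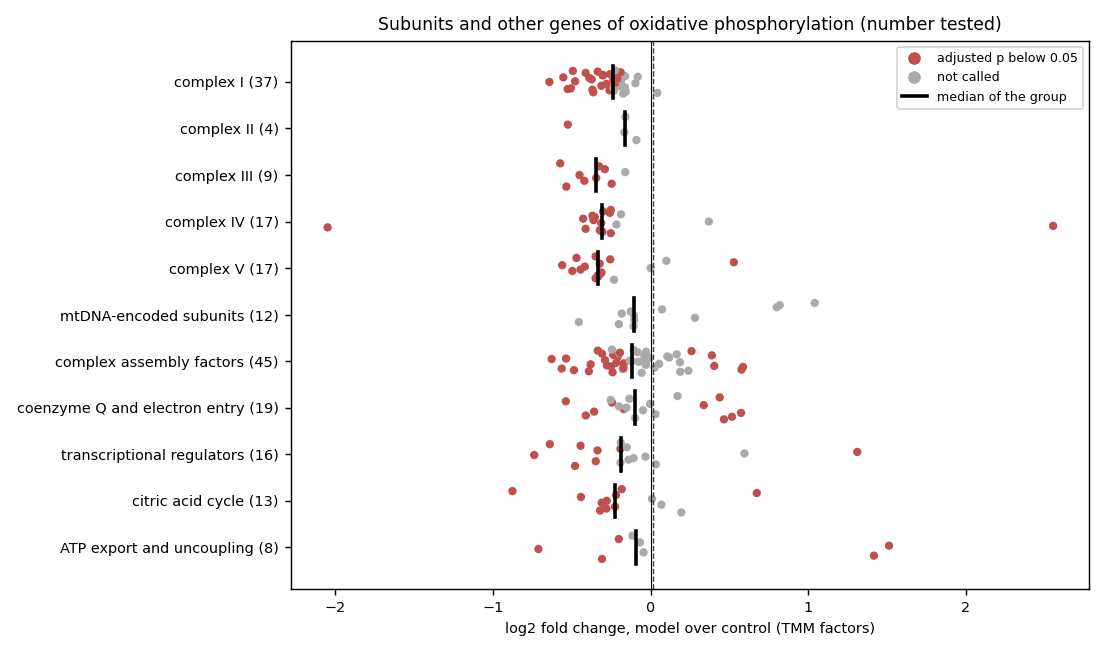
Log2 fold change, model over control with TMM factors, of the tested members by complex and of other genes of oxidative phosphorylation; red points have an adjusted p below 0.05 and bars mark each group's median. Medians of complexes I to V lie between -0.35 and -0.16, and those of the other lists between -0.23 and -0.09.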

How the data were processed

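The authors deposited 1 table of whole-number read counts per gene for the 24 libraries, with gene coordinates and length, another value in base pairs, and no symbols. The build is GRCm39 per the submitters' processing notes; the sources used here name no aligner or counter. Symbols came from GENCODE M21, which named 51498 of 78298 identifiers holding 99.57% of the counts. Members and gene lists were chosen with earlier results of these data known. Libraries were grouped by their labels, 6 control and 18 model. No library matched another of its own group within sampling noise, over 168 pairs; pairs across groups were not compared.

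Counts were tested with edgeR 4.0.16 in R 4.3.3 (TMM factors, filterByExpr by group, robust quasi-likelihood F test, group as the only term), adjusted over 17456 genes by Benjamini-Hochberg and called at 0.05. The SE was obtained from the log2 fold change and its F value, as their quotient after taking the root of F. CPM were TMM-scaled. Levels between genes were compared per kilobase of the deposited length, which covers all annotated exons. Named in full were, in each complex, the 3 called members of largest rise and fall with a mean of at least 5 CPM, the most abundant per length, complex II, Cyc1, Cycs, the core subunits of complex I and the restricted isoforms with their common forms; Ndufb5, Ndufa10, Uqcrc2, Uqcrq, Atp5g2, Atp5g3 and Atp5l were named after their values were seen, and 1 member is not reported here. In libraries of 31.6 to 58.4 M reads, 3 counts are 0.0514 to 0.0949 CPM. On counts simulated for 17172 genes, 73 of 96 changed 2-fold and 54 of 100 changed 1.5-fold were found, with 4 false among 131 calls. Few genes were changed there, evenly up and down. The simulation therefore does not test the scaling of these data, where far more genes were called and the TMM factors separated the groups. Other settings tried were library totals, upper-quartile factors, RLE factors, DESeq2 1.42.0, limma-voom 3.58.1, other filters and thresholds, thinning, a clock covariate, a replicate block, leaving out each library, and, chosen after seeing the data, control 6 as the only control and members that share little sequence.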

Additional observations from a re-analysis of the deposited data

Results flagged for a closer look

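In 2 of the 38 named members checked, 1 control lay far from the other 5. Cox7b was at 164.5 CPM in control 5, the lowest of the 6, beside 238.7 to 277.1 in the others, and Atp5o was at 86.1 CPM in control 4, beside 101.9 to 110.7. Chance sets about 1 in 20 groups apart in this way. Both genes were lower in model mice with TMM factors only.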

How the results depend on the processing

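The count of members lower in model livers was 58, and 11 with library totals alone; of the 58, 11 were still called, 22 lost the call with the same sign and 25 changed sign. The count of members higher went from 2 to 8. Of the 80 members below 0, 47 lay above 0 with library totals; among those named by rule these were Ndufs1 0.17, Ndufs3 0.068, Ndufv2 0.026, Sdha 0.16, Sdhb 0.16, Sdhc 0.24, Cycs 0.15, Cox6a1 0.0034, Cox6b1 0.014, Cox7a1 0.11, Cox7b 0.021 and Cox8a 0.074; with upper-quartile factors Sdhc was at 0.0051. The scaling alone moved the median of all genes from 0.01 to 0.34. Replicate numbers are shared by controls 1 to 6 and model mice 1 to 6, but same-numbered libraries did not deviate together (correlation -0.36 to 0.0998), so the numbers do not pair them: the replicate block over those 12 libraries gave 34 lower (21.5% of all genes), and the same 12 without it 33 (24.8%). Control 6 as the only control gave 23 lower (9.75%) and 0 higher; those 23 were among the 58 and the other 35 kept their sign. The members higher numbered 1 after thinning and 1 under the clock covariate. Leaving out each library gave 52 to 69 lower and 1 to 3 higher. Members lower, each with the share of all genes called lower in brackets, numbered 61 with RLE factors (29.9%), 61 with DESeq2 (30.1%), 58 with limma-voom (28.5%), 44 with upper-quartile factors (21.4%), 53 with no filter (11%), 54 with a filter at 1 CPM in 6 libraries (30.7%), 47 at an adjusted p below 0.01 (22.8%), 61 after thinning (29.4%) and 49 under the clock covariate (14.6%). The causes of these shifts were not tested. Depth limits the rare isoforms: Cox4i2 and Cox6a2, with 85 and 80 counts over the model mice, could not be tested.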
